A study of Mus musculus with 6 samples.

Results

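The loops described here are chromatin loops that appear in the lists of both knockdowns of chromatin remodelers in mouse embryonic stem cells and are missing from the list of the control cells. They were selected on the deposited loop lists: an autosomal loop of the Brg1KD list was taken when the Ino80KD list held a partner and the Control list held none, a partner being a loop with both anchor starts within 30 kb. The rule found 332 loops, 5.68% of the 5848 autosomal loops of the Brg1KD list, among 16936 autosomal loops in the 3 lists. Because the lists chose the members, their presence in the knockdowns and absence from the control is a description and was not tested. Anchors and the genes at them are those of the Brg1KD list. Unless positions are called identical, the Ino80KD partner may be offset by up to 30 kb and may not hold the gene.

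Hi-C, which records DNA segments lying close together in the nucleus, was performed after DpnII digestion in E14 (E14TG2a) mouse embryonic stem cells, a wild-type male line grown in serum and leukemia inhibitory factor. Cells were transfected once with esiRNA, a pool of enzymatically made short interfering RNAs, directed against EGFP (Control), Smarca4 (Brg1KD) or Ino80 (Ino80KD), and were collected 48 h later. Each group had 2 libraries, 1 in each of 2 batches, and 1 list of loops named as merged. Whether the replicates were separate cultures is not given by the labels, and their spread may therefore be technical. Hi-C gives no transcript level, so neither the strength of the knockdowns nor markers of the cell type were measured.

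Chromatin loops of this kind are mostly formed by cohesin, a ring-shaped complex that extrudes DNA until it meets CTCF bound at the loop anchors, and others join promoters to enhancers or to further promoters. Brg1, encoded by Smarca4, is the ATPase of esBAF, the form of the BAF remodeling complex found in embryonic stem cells, and it opens chromatin at enhancers and promoters. INO80 is a separate remodeler that slides and spaces nucleosomes and is also known to act at promoters and enhancers of pluripotency genes.

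The promoters of 5 genes whose transcription starts lie in Brg1KD anchors of gained loops are shown because these genes are named below. They are the gene of the knocked-down ATPase itself, a ligand and a receptor gene, and the pair at the ends of the Brg1KD loop from Mcm3 to Paqr8. Each is the 250 bases before the start, read 5′ to 3′ along the gene from RefSeq's promoters on GRCm38.p6, which is the same assembly as mm10. Capitals mark GC boxes, the hexamer GGGCGG on either strand. The windows are chr9:21615919-21616168 (plus strand, Smarca4), chr13:16011601-16011850 (plus strand, Inhba), chr7:89404116-89404365 (plus strand, Fzd4), chr1:20820313-20820562 (minus strand, Mcm3) and chr1:20890298-20890547 (plus strand, Paqr8).
Smarca4: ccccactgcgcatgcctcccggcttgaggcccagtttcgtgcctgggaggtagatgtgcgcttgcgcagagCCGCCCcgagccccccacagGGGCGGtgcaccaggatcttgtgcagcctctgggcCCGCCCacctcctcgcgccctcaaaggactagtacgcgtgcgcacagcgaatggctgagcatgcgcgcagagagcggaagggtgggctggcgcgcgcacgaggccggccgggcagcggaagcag
Inhba: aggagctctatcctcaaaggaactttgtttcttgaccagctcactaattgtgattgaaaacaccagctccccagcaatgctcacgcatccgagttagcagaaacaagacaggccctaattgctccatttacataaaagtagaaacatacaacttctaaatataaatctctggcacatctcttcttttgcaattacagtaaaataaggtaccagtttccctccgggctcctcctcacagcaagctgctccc
Fzd4: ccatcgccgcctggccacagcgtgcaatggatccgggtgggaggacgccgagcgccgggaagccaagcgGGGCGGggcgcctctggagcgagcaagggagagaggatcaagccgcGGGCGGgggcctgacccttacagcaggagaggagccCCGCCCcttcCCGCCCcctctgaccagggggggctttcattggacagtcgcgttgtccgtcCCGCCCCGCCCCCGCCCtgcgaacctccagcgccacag
Mcm3: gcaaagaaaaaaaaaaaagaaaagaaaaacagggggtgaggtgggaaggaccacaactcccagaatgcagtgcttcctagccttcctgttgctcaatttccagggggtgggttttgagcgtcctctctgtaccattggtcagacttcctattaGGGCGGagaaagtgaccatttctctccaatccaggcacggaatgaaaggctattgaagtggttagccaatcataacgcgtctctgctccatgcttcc
Paqr8: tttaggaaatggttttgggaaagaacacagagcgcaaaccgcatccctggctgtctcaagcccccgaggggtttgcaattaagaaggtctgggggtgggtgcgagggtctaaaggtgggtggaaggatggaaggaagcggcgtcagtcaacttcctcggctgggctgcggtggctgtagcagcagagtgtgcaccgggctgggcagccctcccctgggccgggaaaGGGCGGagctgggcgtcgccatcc
The Fzd4 window held 7 GC boxes (overlapping matches counted) and the Smarca4 window 3, while the Mcm3 and Paqr8 windows held 1 each and the Inhba window 0. GC content was 72.8% for Fzd4, 70.8% for Smarca4, 62.0% for Paqr8, 48.0% for Mcm3 and 43.2% for Inhba.

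Gaining a loop in both knockdowns was the rarest of the patterns in which 1 list lacked a loop that the others held. From the Control list, 601 loops were also in the Brg1KD list alone and 473 also in the Ino80KD list alone, against the 332 loops that were missing from Control only. Counted from the Ino80KD list there were 333 such loops, 6.25% of its 5330. Most loops of the Brg1KD list, 4046 or 69.2%, had partners in both other lists, 599 (10.2%) had one in Control only, and 871 (14.9%) had none. Of the 5758 Control loops, 640 (11.1%) had no partner in either knockdown. The lists give positions only, with no score or count per loop, so how far a missing loop lay below the caller's threshold was not measured, nor was depth, which is unknown.

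**Figure D1:**
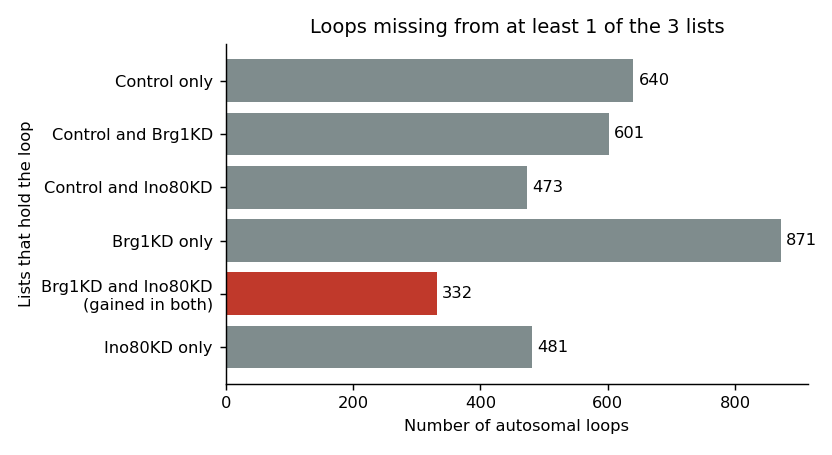
Number of autosomal loops (horizontal axis) by the lists that hold them (vertical axis), for loops missing from at least 1 list. Loops of both knockdowns without a control partner (332, red, counted in the Brg1KD list) were fewer than the 601 shared by Control and Brg1KD or the 473 shared by Control and Ino80KD, both counted in the Control list.

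The rule admits partners with anchor offsets of at most 30 kb, and within that range the gained loops were less often identical in both knockdowns than loops of all 3 lists were. In 140 of the 332 (42.2%) both anchors were identical in the Ino80KD list, in 156 (47.0%) the larger anchor offset was 10 kb, 1 bin, in 27 it was 20 kb and in 9 it was 30 kb. Of the 4046 loops of all 3 lists, 2305 (57.0%) had identical anchors in the Ino80KD list and 1566 (38.7%) an offset of 10 kb. The difference was not tested. The span was the same in 150 loops, longer in Brg1KD in 90 and shorter in 92.

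The nearest Control loop, measured by the larger of its anchor offsets, lay a median of 180 kb away, with quartiles of 90 and 360 kb. It lay over 100 kb away for 236 members (71.1%), over 500 kb for 52 and over 1000 kb for 13. At the edge of the rule, 13 members had a Control loop at 40 kb, with a median span of 240 kb, and 35 loops with an Ino80KD partner were left out because their Control loop lay at 30 kb, with a median span of 290 kb. The Hoxb6 and Hoxb7 loop described below is among the former.

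**Figure D2:**
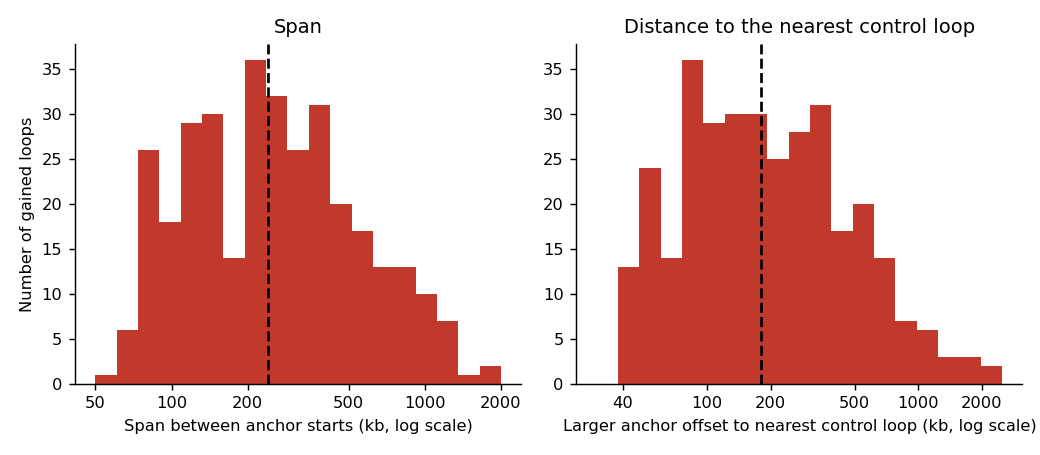
Histograms of the 332 loops gained in both knockdowns: left, span between anchor starts in kb; right, larger anchor offset to the nearest control loop in kb, both on log axes. Dashed lines mark the medians, 240 kb and 180 kb.

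In span the gained loops resembled the loops found in all 3 lists. Spans ran from 60 to 1720 kb with a median of 240 kb (quartiles 140 and 422.5 kb), and the loops of all 3 lists had the same median of 240 kb (140 and 420 kb). The median was 280 kb for loops of the Brg1KD list alone and 320 kb for loops of the Control list alone. Of the members, 89 (26.8%) spanned under 150 kb, 178 (53.6%) from 150 to under 500 kb, 50 (15.1%) from 500 to under 1000 kb, and 15 (4.52%, 95% exact binomial interval 2.55 to 7.34%) at least 1000 kb. The last share was 2.82% (2.33 to 3.38%) among loops of all 3 lists, but 5.40% among loops of the Brg1KD list alone and 5.68% among those of Brg1KD and Control. Such intervals cover counting error only and treat loops as independent, and differences were not tested.

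The shortest member spanned 60 kb on chromosome 2 and had no gene at its anchors. It was followed by 6 members of 70 kb, 4 of them with a gene at an anchor. These were the loop from Mcm3 to Paqr8 on chromosome 1, the loops of Gnb4, a G-protein beta subunit, and Ilf2, a subunit of a complex that binds double-stranded RNA, on chromosome 3, and that of Spast, a microtubule-severing ATPase, on chromosome 17. The other 2 of 70 kb, on chromosomes 9 and 11, had no gene there. The naming rule took the first 5 by position, and the loops on chromosomes 11 and 17 were added because they tie with these. The 5 longest, of 1720 kb (chromosome 10), 1650 kb (chromosome 8), 1390 kb (chromosome 6), 1350 kb and 1340 kb (both chromosome 13), had no gene at an anchor. Each of these 5 had at least 1 anchor within 30 kb of a Control anchor, as did all but 25.3% of the 332 members.

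The anchors of gained loops were often already anchors in the control cells. In 174 members (52.4%, 46.9 to 57.9%) 1 of the anchors lay within 30 kb of an anchor of a Control loop, in 74 (22.3%, 17.9 to 27.2%) both did, and in 84 (25.3%, 20.7 to 30.3%) neither did. For loops of all 3 lists, leaving out each loop's own Control partner, both anchors were shared with other Control loops in 33.5% (32.1 to 35.0%) and neither in 21.0% (19.8 to 22.3%). Loops of the Brg1KD list alone stood near the members, with 24.2% (21.4 to 27.2%) and 24.3% (21.5 to 27.3%). An anchor near that of a loop found in the Control list alone was present in 54 members (16.3%), and in 16.2% of the loops of all 3 lists.

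**Figure D3:**
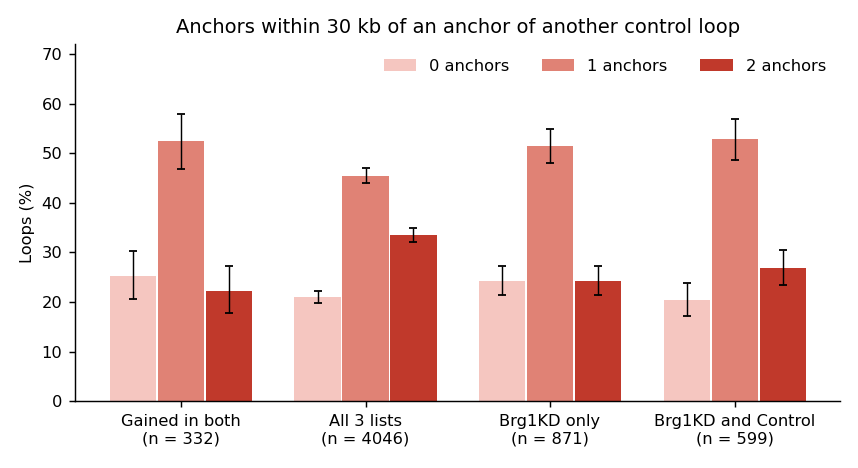
Share of loops in percent (vertical axis) with 0, 1 or 2 anchors within 30 kb of an anchor of another control loop, for 4 sets of Brg1KD loops (horizontal axis). Error bars are 95% exact binomial intervals. Both anchors were shared in 22.3% of the loops gained in both knockdowns and in 33.5% of the loops of all 3 lists.

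Relative to whole Control loops, 95 members (28.6%) lay inside one, 82 (24.7%) enclosed one, 38 (11.4%) did both, 28 (8.43%) only crossed one, and 89 (26.8%) were apart from every Control loop. The share apart was 26.5% for loops of all 3 lists and 27.2% for loops of the Brg1KD list alone. In 134 members (40.4%, 35.0 to 45.9%) an anchor lay within 30 kb of that of a Control loop reaching over 30 kb beyond their other end. The share was 46.6% (45.1 to 48.2%) of the loops of all 3 lists and 37.8% (34.5 to 41.1%) of the loops of the Brg1KD list alone. Members that joined the outer anchors of 2 adjoining Control loops numbered 16 (4.82%, 2.78 to 7.71%), against 7.66% (6.86 to 8.52%) and 6.20% (4.69 to 8.01%).

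The 332 members fell into 312 groups when loops with anchors within 30 kb of each other were joined. Of these groups, 296 held a single loop, 13 held 2 and 3 held more. The members are thus spread over the autosomes, from 2.84% of the Brg1KD loops of chromosome 19 (5 of 176) and 8 of 267 on chromosome 15 to 9.86% on chromosome 17 (21 of 213). Members that share an anchor are not independent of each other.

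**Figure D4:**
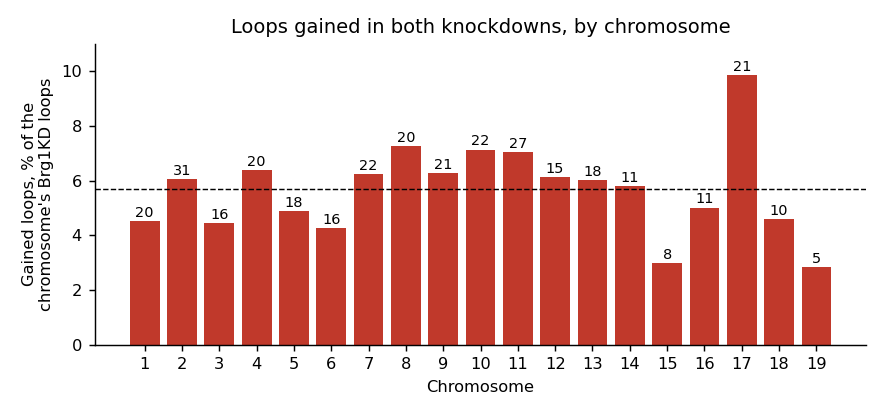
Loops gained in both knockdowns as a percent of each chromosome's Brg1KD loops (vertical axis) for the autosomes (horizontal axis). Numbers above bars are loop counts, and the dashed line is the share over all autosomes, 5.68%. Chromosome 17 stands highest at 9.86% and chromosome 19 lowest at 2.84%.

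One of the 3 larger groups lay at Smarca4, the gene targeted in Brg1KD. Its start lies in the anchor chr9:21610001-21620000, which was joined to chr9:21860001-21870000 (250 kb) and to chr9:21940001-21950000 (330 kb) in both knockdown lists at identical positions. The nearest Control loop, from 21970001 to 22130001, was 360 kb away by its larger offset, and no Control anchor lay closer than 360 kb to the Smarca4 end. One more gained loop followed downstream, from 21970001 to an anchor at 22050001 that holds Elavl3, a neuronal RNA-binding protein gene, again at identical positions in Ino80KD. Its left anchor is also the left anchor of that Control loop. The bins of all these anchors were in A.1.1 in all 6 libraries, A.1.1 being the most A-like, or active, of the 8 subcompartments into which each library was divided.

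The largest group held 4 loops on chromosome 12, between 25010001 and 26300001. They spanned 1290, 210, 430 and 210 kb and had no gene at an anchor. The anchor at 25860001, shared by 2 of them, was in B.2.2, the most B-like class, in both Control and both Brg1KD libraries and in B.2.1 in both Ino80KD libraries, so only Ino80KD stood apart there. The third group held 3 loops on chromosome 8, with left anchors at 69320001, 69330001 and 69340001 and spans of 260, 530 and 380 kb, for which the nearest Control loop lay at least 960 kb away. Their left bin was in A.1.1 in both Control and both Ino80KD libraries and in A.1.2 in both Brg1KD libraries. The right bins of the loops of 260 and 380 kb went the other way, from A.2.1 in Control and Ino80KD to A.1.2 in both Brg1KD libraries (limma adjusted p = 8e-08 in each case, and 0.236 with a common variance), and that of the loop of 530 kb was in A.1.1 in all 6.

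Most gained loops had no gene at an anchor by the start or end of the gene, the sense used throughout. With 20665 protein-coding autosomal genes placed, 16457 by a RefSeq transcription start and 4208, without a start in that table, by either end of the gene, 86 members (25.9%, 21.3 to 31.0%) had a gene at 1 anchor, 12 (3.61%, 1.88 to 6.23%) at both and 234 (70.5%) at neither. Together 29.5% had at least 1, and the anchors held 122 genes, 80 by a start and 42 by an end. Among loops of all 3 lists, 23.0% (21.7 to 24.4%) had a gene at 1 anchor and 3.34% (2.80 to 3.94%) at both, and among loops of the Brg1KD list alone 21.1% and 2.99%. Counting any gene body over an anchor raised the share with genes at both anchors to 34.3% for the members and 34.4% for loops of all 3 lists. By gene body, only 26.5% of the members and 21.0% of loops of all 3 lists had no gene at either anchor.

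Several gene lists had no gene at the anchors of gained loops. Of 34 placed pluripotency genes, 0 were placed in a member anchor, and 1 in an anchor of a loop found in all 3 lists. The same count for members was 0 for the 15 INO80 subunit genes, the 29 Polycomb genes, the 33 chromosome architecture genes (CTCF, cohesin and condensin genes among them), and the 16 primitive endoderm, 19 mesendoderm and 31 neuroectoderm genes. It was also 0 for 352 vomeronasal receptors and 67 protocadherins. For background, 122 of the 20665 placed genes lay at member anchors and 1139 at anchors of loops of all 3 lists. At the share of members, 0 is the usual count for a list of 15 to 34 genes. Such counts therefore say nothing particular about the gained loops.

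The list genes found at anchors were few, and Tfap2c, Hoxb6, Hoxb7, Zfp516 and Zfp930 were placed there by an end of the gene. They were Smarca4 of 29 BAF subunit genes, Fzd4 and Inhba of 82 signaling genes, Tfap2c of 12 placed trophectoderm genes, Hoxb6 and Hoxb7 of 39 Hox genes, and 2 members each of the Zfp zinc-finger genes (Zfp516 and Zfp930 of 388), the olfactory receptors (Olfr247 and Olfr649 of 1104) and the solute carriers (Slc11a1 and Slc24a1 of 362).

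Among signaling genes, Inhba encodes the beta A subunit of activin, a TGF-beta family ligand. Its start lay in chr13:16010001-16020000, joined over 750 kb to chr13:16760001-16770000 at identical positions in both knockdown lists, and the nearest Control loop was 1350 kb away. The Inhba anchor was in B.2.2 and B.1.2 in Control, B.2.1 and B.1.2 in Brg1KD and B.2.2 in both Ino80KD libraries, so it was in B throughout and the groups overlapped. Fzd4, a Wnt and norrin receptor, shares its anchor chr7:89400001-89410000 with Tmem135 and was joined to chr7:89310001-89320000, 90 kb away. In the Ino80KD list the right anchor started at 89410001, past the starts of both genes. The nearest Control loop, from 89160001, had its right anchor at that same position. It enclosed the Fzd4 loop and was 150 kb away by its larger offset. The bin of the Fzd4 start was in A.2.2 and B.1.1 in Control, in B.2.1 and B.1.2 in Brg1KD and in B.1.1 in both Ino80KD libraries. Both Brg1KD libraries lay below both Control libraries there (limma adjusted p = 0.481, and 0.00207 with 1 common variance for all bins), while Ino80KD overlapped Control.

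Among transcription factor genes, Tfap2c, which encodes the factor AP-2 gamma of trophectoderm and germ cells, was joined to chr2:172760001-172770000 over 210 kb, at identical positions in Ino80KD. A Control loop with offsets of at most 80 kb lay beside it. The Tfap2c bin was in A.1.2 in 5 of 6 libraries and in A.1.1 in Brg1KD replicate 2. Hoxb6 and Hoxb7, homeobox genes of body patterning, shared the anchor chr11:96290001-96300000, joined over 720 kb to the anchor of Sp6, a zinc-finger factor of the Sp family. This member sat at the edge of the rule, with a Control loop from 96330001 to the same right anchor, 40 kb away.

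The other list genes lay in various settings. Olfr649 was joined over 410 kb within B.2.2 and B.2.1 chromatin, 1690 kb from a Control loop and identical in Ino80KD, and Olfr247 over 220 kb with a Control loop 100 kb away. Slc11a1, a metal transporter of macrophages, was joined over 170 kb and Slc24a1, a sodium, calcium and potassium exchanger of rods, over 640 kb, each with a Control loop 300 kb away. Zfp516 was joined over 80 kb, with a Control loop 80 kb away.

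The 12 loops with a gene at both anchors joined genes of mixed function. In 5 of them both anchors held a transcription start, namely the loops of Mcm3, Bbs5, Bax, Pate5 and Palb2, and in the others a gene was placed by an end, which may not be its start. Mcm3, a subunit of the MCM helicase that unwinds DNA in replication, was joined to Paqr8, a membrane progestin receptor, over 70 kb, 190 kb from a Control loop. In the Ino80KD list the anchors of this loop started at 20800001 and 20900001, so neither held the start of Mcm3 or Paqr8. Bbs5, a BBSome subunit of cilia, was joined to the anchor of Phospho2 and Ccdc173 over 140 kb, and Kmt2e, of the family of SET-domain proteins, to Srpk2, a kinase of splicing factors, over 240 kb. In the Ino80KD list the Phospho2 and Ccdc173 anchor and the Kmt2e anchor were each offset by 10 kb. The starts of Phospho2 and Ccdc173 and the end that placed Kmt2e fell outside them. Bax, an inducer of apoptosis, was joined to the anchor of Car11 and Sec1 over 230 kb at identical positions in Ino80KD, and both ends were in A.1.1 in all 6 libraries, as were those of Bbs5. Ints9, an Integrator subunit, was joined to Extl3, an enzyme of heparan sulfate synthesis, over 110 kb, again identical in Ino80KD.

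Others of the 12 lay in B or on chromosome 18. The chemokine genes Ccl11 and Ccl1 were joined over 120 kb, with the Ccl11 bin in B.2.2 in all 6 libraries, and Pate5 was joined to Gm5916 over 280 kb, also from B.2.2. Grxcr2 was joined to Lars, a leucyl-tRNA synthetase, over 210 kb, and Cxxc1, which binds unmethylated CpG within a histone methyltransferase complex, to Rpl17, a ribosomal protein, over 780 kb. Atp6v1b2, a subunit of the vacuolar proton pump, was joined to Zfp930 over 90 kb on chromosome 8, just upstream of the group of 3 loops there, identical in Ino80KD and 750 kb from a Control loop. The remaining pairs were Hoxb6 and Hoxb7 with Sp6, and Dctn5 and Palb2 with Rbbp6 over 840 kb with a Control loop 50 kb away, the latter falling outside the naming rule and added because it completes the 12.

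The members farthest from any Control loop were mostly in B chromatin without genes at the anchors. On chromosome 6 the loop from 14830001 to 15160001 lay 2270 kb from a Control loop, on chromosome 4 that from 68010001 to 68840001 lay 2250 kb away, and on chromosome 1 that from 145960001 to 146280001 lay 1910 kb away. The chromosome 4 loop was in B.2.2 at both ends in all 6 libraries and identical in Ino80KD. Further members lay 1800 kb (chromosome 16), 1690 kb (Olfr649), 1380 kb (chromosome 13), 1360 kb (chromosome 6), 1350 kb (Inhba), 1160 kb (chromosome 8) and 1140 kb (chromosome 1) from a Control loop. Of the 10, only the chromosome 8 loop had both ends in A, in all 6 libraries.

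Between their anchors the members held 946 protein-coding genes by midpoint, with a median of 2 and at most 38 per loop, and 62 members (18.7%) held none. Loops of all 3 lists also held a median of 2, and 484 of the 4046 held none. The list genes held inside were examined after the anchors, outside the naming rule. For background, 946 of the 20665 placed genes lay inside members and 7283 inside loops of all 3 lists. Set against these totals, the small counts below single out no list, and none was tested. Of 34 pluripotency genes 2 lay inside, Dppa4, a chromatin-associated protein of pluripotent cells (loop of 430 kb, Control loop 330 kb away), and Etv5, an ETS factor (190 kb, Control loop 50 kb away), against 23 inside loops of all 3 lists. Of 29 Polycomb genes there were 2, Suz12, a core subunit of PRC2 (380 kb), and Pcgf1, of a variant PRC1 complex, which shares a loop of 280 kb with Ino80b, a subunit of INO80. Neuroectoderm genes inside were Pax6 (860 kb, Control loop 520 kb away), Dlx1 (970 kb) and Nkx6-1 (670 kb), 3 of 31. Signaling genes numbered 4 of 82, with Fzd5 and Tgfb2 beside Fzd4 and Inhba. Cdx1, Ctcfl and Tfap2c were single genes of the mesendoderm, architecture and trophectoderm lists.

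Promoters at member anchors resembled promoters at large in the letters searched. Of 91 promoters in the RefSeq table (250 bases before to 50 after the start), 42 (46.2%) held a GC box on either strand, against 47.0% of all 20085 promoters of protein-coding autosomal genes. CpG-rich promoters, with a GC content over 50% and an observed over expected CpG above 0.6, numbered 47 (51.6%) against 46.2%, and median GC content was 58.0% against 57.0%. The CTCF core motif, searched on both strands, was in 0 of the 91 and in 116 (0.578%) of all promoters, which says only that these letters are not in these windows.

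The anchors of gained loops lay less often in the A compartment than those of lasting loops. In the 6 libraries 56.3% to 58.6% of the 664 member anchors were in A, against 65% to 67.8% of the anchors of loops in all 3 lists, 53.7% to 55.9% for the Brg1KD list alone and 38.5% to 39.7% of all bins. These ranges did not overlap, although the libraries that give them are the same for each set of loops. In Control replicate 1, 169 members (50.9%) joined A with A, 117 (35.2%) B with B and 46 (13.9%) A with B. Loops of all 3 lists joined B with B in 25.8% there, and loops of the Brg1KD list alone in 36.7%. Anchors in B.2.2 made up 10.4% for the members and 5.51% for loops of all 3 lists in that library, while A.1.1 held 22.3% and 23.2%. For loops of the Brg1KD list alone B.2.2 held 10.3% and A.1.1 19.4%, and for those of the Control list alone 11.1% and 16.9%. Loops of the Control list alone had 48.6% to 51.1% of their anchors in A, so the lean towards B was not particular to gained loops.

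The compartment of the joined ends was mostly the same in control and knockdown cells. In all 6 libraries 153 members joined A with A, 97 B with B and 26 A with B, which leaves 56 (16.9%) whose type varied between libraries. Of these 56, 1 was B with B in all 4 knockdown libraries and in no Control library, and 0 were A with A or A with B in that way.

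On the 8-step scale (1 for B.2.2, 8 for A.1.1), the mean class of the member anchors was 5.042 and 5.038 in Control replicates 1 and 2, 4.977 and 5.008 in Brg1KD, and 4.977 and 5.02 in Ino80KD. Both libraries of each knockdown lay below both Control libraries. Group means were 5.04 ± 0.00319 (SD, n = 2) in Control, 4.99 ± 0.0213 in Brg1KD and 4.998 ± 0.0298 in Ino80KD. The differences from Control were -0.0474 classes for Brg1KD (-0.0648 and -0.0301 within batches 1 and 2) and -0.0414 for Ino80KD (-0.0648 and -0.0181). Over all bins the differences were -0.0847 and -0.0774, larger than at the member anchors in each batch, and this gap was not tested. Without Ino80KD replicate 1 the Ino80KD difference was -0.0203, and without Ino80KD replicate 2 it was -0.0625. The comparisons with the shared Control libraries are not independent. Shifts smaller than those over all bins were not particular to gained loops. Anchors of the Brg1KD list alone had differences of -0.0472 for Brg1KD and -0.0575 for Ino80KD. For loops of Brg1KD and Control only they were -0.0409 and -0.0618. Loops of all 3 lists had -0.0927 and -0.0604, and those of the Control list alone -0.128 and -0.0775.

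**Figure D5:**
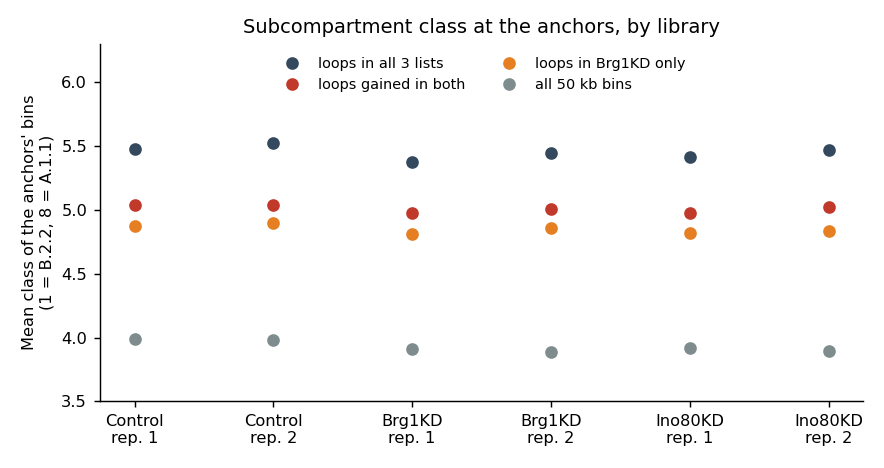
Mean subcompartment class (vertical axis, 1 for B.2.2 to 8 for A.1.1) at the anchors of 3 sets of loops and over all 50 kb bins, in each of the 6 libraries (horizontal axis). Each point is 1 library. Points of the gained loops lie between 4.977 and 5.042, below those of loops in all 3 lists in every library.

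Single anchors shifted about as often as the genome. The 664 anchors lie in 648 bins of 50 kb. In 25 of these (3.86%) both Brg1KD libraries were above both Control libraries, towards A, and in 50 (7.72%) both were below, towards B, while over all 47717 bins the shares were 3.13% and 7.19%. For Ino80KD, 13 bins (2.01%) were above and 21 (3.24%) below, against 1.76% and 4.50% of all bins.

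By limma at an adjusted p of 0.05 over all bins, Brg1KD called 16 member bins towards A (2.47%) and 22 towards B (3.40%), against 1.53% and 3.30% of all bins. Ino80KD called 5 (0.772%) and 15 (2.31%), against 0.855% and 2.37%. These p-values are not calibrated, because 260 of the 648 bins had no spread within any group, and all 38 Brg1KD calls and 19 of the 20 Ino80KD calls fell in such bins. With 1 common variance for all bins 24 (3.70%) and 5 (0.772%) member bins were called, against 3.40% and 0.683% of all bins. Leaving out 1 library raised the counts above 38 and 20 each time. Such fits leave 1 library in a group, and the matching share over all bins was not counted. Their counts, listed only with the alternatives below, therefore do not show how many member bins shifted.

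Among the 40 members with a called anchor, few moved far. The right anchor of the Hint3 loop at chr10:31300001-31310000 was in B.1.1 in both Control libraries and in B.2.1 in all 4 knockdown libraries (limma adjusted p = 8e-08 for Brg1KD and 1.2e-07 for Ino80KD, and 0.00207 and 0.00371 with a common variance). Hint3, a histidine triad hydrolase gene, lies at its other anchor, 690 kb away, which stayed in A.1.2 or A.2.1. On chromosome 1 the anchor at 172620001 was in A.1.2 in both Control libraries and in A.1.2 and A.1.1 in Brg1KD, but in B.2.1 in both Ino80KD libraries (limma adjusted p = 0.0174, and 4.33e-22 with a common variance). A Control anchor lies at the same position, so it also served loops of the control cells. On chromosome 17 the loop from 17770001 to 17890001 had both bins in B.1.1 in Control and Ino80KD. In both Brg1KD libraries its left bin was in A.2.2 (limma adjusted p = 8e-08, and 0.236 with a common variance) and its right bin in B.2.2 (8e-08 and 1.44e-07), so the joined ends moved in opposite directions.

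Other called anchors moved by a single class. Both ends of the Polr3a loop, named for the largest subunit of RNA polymerase III and 130 kb long, were in A.2.1 in both Control libraries and in A.2.2 in all 4 knockdown libraries. The Atp6v1b2 and Zfp930 ends were in A.1.1 in Control and Ino80KD and in A.1.2 in both Brg1KD libraries. The far anchor of the Mark4 loop, a microtubule-affinity kinase gene on chromosome 7, was in A.1.2 in Control and in A.1.1 in all 4 knockdown libraries. Steps of 1 class towards B in all 4 knockdown libraries were also seen at the left anchors of loops on chromosome 9 (60940001, A.2.2 to B.1.1), chromosome 18 (39130001, A.1.1 to A.1.2) and chromosome 19 (20360001, B.2.1 to B.2.2), and a step towards A at chr6:51150001-51160000 (A.2.1 to A.1.2). On chromosome 2 the right anchor of the loop from 106990001 to 107870001 was in B.2.2 in Control and Ino80KD and in B.2.1 in both Brg1KD libraries. For these steps the limma adjusted p was 8e-08 (Brg1KD) or 1.2e-07 (Ino80KD), but 0.236 and 0.362 with a common variance. The left anchor of that chromosome 2 loop was not called by limma, and its replicates disagreed. It was in B.2.2 and B.2.1 in Control, B.2.1 and A.2.2 in Brg1KD, and A.2.1 and B.2.2 in Ino80KD. Its mean difference was 2 classes in each knockdown (adjusted p with a common variance 0.00207 and 0.00371), but each knockdown overlapped Control.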

How the data were processed

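The authors deposited 1 list of loops per group, taken as pooled because its name calls it merged (the labels do not say so, and record it with replicate 2), and 1 file of subcompartments per library, whose score is the rank of the label in 8 equal steps. Per the submitters' processing notes, BWA, SAMtools, Juicer 2.0, HOMER and bedtools were used on mm10. The callers and thresholds are not given in the sources used here. Depth is unknown and no normalization for it is recorded.

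Loops were matched by anchor starts within 30 kb, after which each anchor took the class (the score times 8) of its 50 kb bin. Bins were tested with limma's lmFit and eBayes (version 3.58.1, R 4.3.3) on all 6 libraries (Benjamini-Hochberg over 47717 bins). The common-variance fit left out eBayes. It gave every bin the mean residual variance and took p from the normal distribution, as if that variance were known. Its very small p-values rest on that assumption. The label names the batch, so replicate numbers pair the libraries (r of deviations 0.0984, 0.102 and 0.0885). The main fit had the group alone and left batch out, so its p-values are not paired. A fit with batch as a block is given among the alternatives. Genes came from RefSeq of GRCm38.p6. Members and gene lists were chosen with earlier results of these data known.

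Named members had a list gene at an anchor, were among the 10 farthest from a Control loop, the 5 longest or 5 shortest, the 10 with a called anchor and the largest summed shift, or the first 10 with genes at both anchors by that distance. Loops of the 3 larger groups and genes inside loops were added after their values were seen. The primitive endoderm genes inside loops are not reported here.

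Matching distance, gene placement, bin choice, variance model, batch block and libraries were varied.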

Additional observations from a re-analysis of the deposited data

Results flagged for a closer look

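The X chromosome, which the autosomal rule leaves out and for which no subcompartments were analysed here, held 20 loops in both knockdown lists and not in the Control list by the same matching, of 165 Brg1KD loops (12.1%). It was noted because it is a signal in data that the comparisons do not use. On the autosomes the share was 5.68%. The Control and Ino80KD lists held 145 X-linked loops each. The difference from the autosomes was not tested.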

How the results depend on the processing

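The number of gained loops was 383, 348 and 320 at matching distances of 10, 20 and 50 kb and 333 counted in the Ino80KD list, but 653 when only identical anchors counted as partners. That last alternative also leaves more loops without a Control partner by construction. The share with a gene at both anchors was 34.3% by gene bodies and 1.51% by transcription starts alone, and the share with a gene at 1 or both anchors 73.5% and 20.8%, the starts-alone settings having been chosen after seeing the data. Both anchors lay within 10 kb of a Control anchor in 14.2%. With batch as a replicate block limma called 44 member bins for Brg1KD (6.79%, against 5.34% of all bins) and 24 for Ino80KD (3.70% against 3.52%), and with a common variance 24 (3.70% against 3.40%) and 5 (0.772% against 0.683%). Leaving out 1 library gave 61 to 326 and 29 to 316 calls. These last fits leave 1 library in a group, and the matching share over all bins was not counted. Their counts therefore do not show how many member bins shifted. The mean class difference within the paired batches was -0.0648 and -0.0301 for Brg1KD and -0.0648 and -0.0181 for Ino80KD, negative throughout. The causes of these changes were not tested. Of 54 alternatives 32 left their result within 1.5 times a count or within the spread or interval of a value. Missing depth and scores per loop limit all counts.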

Other observations

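The anchors of the gained loops held 4 microRNA hairpins of the RefSeq table: Mir1928 on chromosome 1, Mir6414 on chromosome 5, Mir7089 on chromosome 9 and Mir8099-2 on chromosome 12. Chromosome 17, which had the highest share of gained loops among the autosomes (9.86%), also had a high share of Control loops without a partner in either knockdown, 28 of 195 (14.4%), while on chromosome 14 that share was 16.3% and the share of gained loops 5.79%. Chromosome 19 was lowest in both, with 2.84% and 6.82%.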
